A study of Mus musculus with 10 samples.

Results

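The genes described here are 40 genes of the extracellular matrix and of fibrosis, taken as a fixed list and grouped by role into fibrillar collagens, other interstitial collagens, basement membrane, glycoproteins with proteoglycans and elastic fibre genes, myofibroblast and TGF-beta genes, and remodelling enzymes with their inhibitors. A gene entered when at least 1 probe set on the array named that gene and no other, and where several did so the brightest on average over the 10 arrays stood for the gene. This held for 38 of the 40 genes, out of 8251 genes named in this way on the array, and 31 of them lay high enough to be tested.

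Kidneys came from 5 mice with an FGF23 transgene, numbered TG 614, 619, 652, 657 and 661. Their 5 littermate controls were WT 612, 618, 650, 658 and 663, and all mice were 8 weeks old and on a C57Bl background. The TG mice carry human wild-type FGF23 behind a promoter the labels call 1 alpha col 1, introduced by microinjection, and WT mice lack it. The genotype field of the labels reads TG for all 10 mice, so the groups rest on the sample titles. The labels give neither the sex of the mice, nor which TG and WT mice were littermates, nor how many founder lines were used. Total RNA of 1 kidney sample per mouse was put on 1 Affymetrix MG_U74Av2 array, and a gene's level is given as the log2 value deposited for its probe set.

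Fibrillar collagens form the load-bearing fibres of the interstitium, while type IV collagen, laminin and nidogen form the sheets under tubules, glomerular capillaries and vessels. Fibrosis is the build-up of interstitial matrix by fibroblasts and by myofibroblasts, cells that carry smooth muscle actin and respond to transforming growth factor beta. Metalloproteinases cut the matrix, TIMPs hold them back, and lysyl oxidases crosslink collagen and elastin. FGF23 is a bone-derived hormone that lowers renal phosphate reabsorption, and the comparison asks how this set of genes stood in kidneys of mice with an FGF23 transgene.

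Promoter windows, each from 250 bases before to 50 bases after an annotated start, were at hand for 25 of the 40 genes in the RefSeq table (GRCm38.p6). The windows of Col1a2, Tgfbi and Acta2 are printed as 1 example each of a fibrillar collagen, a TGF-beta target and the myofibroblast actin. Col4a1 and Col4a2 are shown because their starts lie 21 bases apart on opposite strands, so that their windows share 78 bases. Capitals mark TATAA in Acta2, CCAAT (or ATTGG on the other strand) in Col1a2, and GGGCGG (or CCGCCC) in Tgfbi and in the shared stretch, with both strands searched.
Acta2, chr19:34255324-34255623, minus strand: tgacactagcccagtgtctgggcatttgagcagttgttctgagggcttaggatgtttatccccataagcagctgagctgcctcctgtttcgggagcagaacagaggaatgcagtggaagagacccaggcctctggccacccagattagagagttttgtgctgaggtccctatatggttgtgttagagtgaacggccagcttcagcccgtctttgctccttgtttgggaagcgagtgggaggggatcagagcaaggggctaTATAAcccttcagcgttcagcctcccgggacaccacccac
Col1a2, chr6:4505368-4505667, plus strand: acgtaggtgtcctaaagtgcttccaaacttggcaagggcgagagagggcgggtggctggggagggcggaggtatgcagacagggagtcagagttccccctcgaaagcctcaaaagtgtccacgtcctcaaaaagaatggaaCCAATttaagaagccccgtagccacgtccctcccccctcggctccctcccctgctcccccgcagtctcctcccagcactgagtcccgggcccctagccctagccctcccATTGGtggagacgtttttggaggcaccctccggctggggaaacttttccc
Tgfbi, chr13:56609336-56609635, plus strand: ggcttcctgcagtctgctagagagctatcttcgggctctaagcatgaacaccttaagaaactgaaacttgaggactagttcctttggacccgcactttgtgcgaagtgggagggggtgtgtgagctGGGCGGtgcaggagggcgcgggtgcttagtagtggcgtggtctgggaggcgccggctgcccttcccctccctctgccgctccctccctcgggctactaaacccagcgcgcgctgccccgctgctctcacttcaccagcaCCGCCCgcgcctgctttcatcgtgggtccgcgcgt
Col4a1 and Col4a2, shared, chr8:11312777-11312854, plus strand: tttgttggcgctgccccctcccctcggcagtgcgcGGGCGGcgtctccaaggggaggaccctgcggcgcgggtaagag
CCAAT was present in 37.4% of all 32851 windows of this length in the table and in those of 9 of the 25 genes. TATAA was present in 24.9% of all windows and in those of 7 of the 25 genes, and GGGCGG in 35.7% and in those of 16. These matches are descriptions of the letters in the windows.

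Between 53.0% and 57.0% of the probe sets on each array lay over a log2 value of 4, the floor used for testing, which was passed when at least 5 of 10 arrays exceeded it. This left 6814 probe sets, among them those that stood for 5294 genes. Probe sets that named several genes or none were kept among the 6814. The tissue carried its defining kidney transcripts: the phosphate cotransporter Slc34a1 averaged 13.26 in TG and 13.66 in WT kidneys, and uromodulin (Umod) 13.30 in TG and 12.88 in WT kidneys. Xist and the Y-linked Eif2s3y gave 2 females (TG 614 and TG 652, WT 612 and WT 650) and 3 males per group. Per the array run records, the 4 mice numbered 612 to 619 shared a chip lot, a fluidics station and a scan day. Those numbered 650 to 663 were spread over 3 lots, 2 stations and 3 scan days. Of these, only WT 650 had the lot of mice 612 to 619, and TG 661 and WT 663 had their station. TG 652, TG 657, WT 650 and WT 658 had the scan day of mice 612 to 619. In bulk tissue, a change in the number of cells of a type and a change in RNA per cell cannot be told apart. The p-values measure the spread between these mice, whose small number limits the precision.

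TG 614 and TG 619 stood apart from the other 8 mice across the matrix genes. TG 614 had the highest value of all 10 mice in 19 of 31 genes and TG 619 in 5. Together they held the 2 highest values in 17 of 31 genes, which was so for 5.03% of all tested probe sets. As a mean over the 31 genes, the log2 deviation from each gene's mean was 0.65 in TG 614 and 0.51 in TG 619. It was -0.032, -0.17 and -0.18 in TG 652, 657 and 661, against 0.13, -0.41, 0.0084, -0.27 and -0.24 in WT 612, 618, 650, 658 and 663. The other 3 TG mice therefore lay inside the span of the WT mice. WT 618 had the lowest value in 9 of 31 genes, as it did for 14.7% of all probe sets, and WT 658 in 7.

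**Figure D1:**
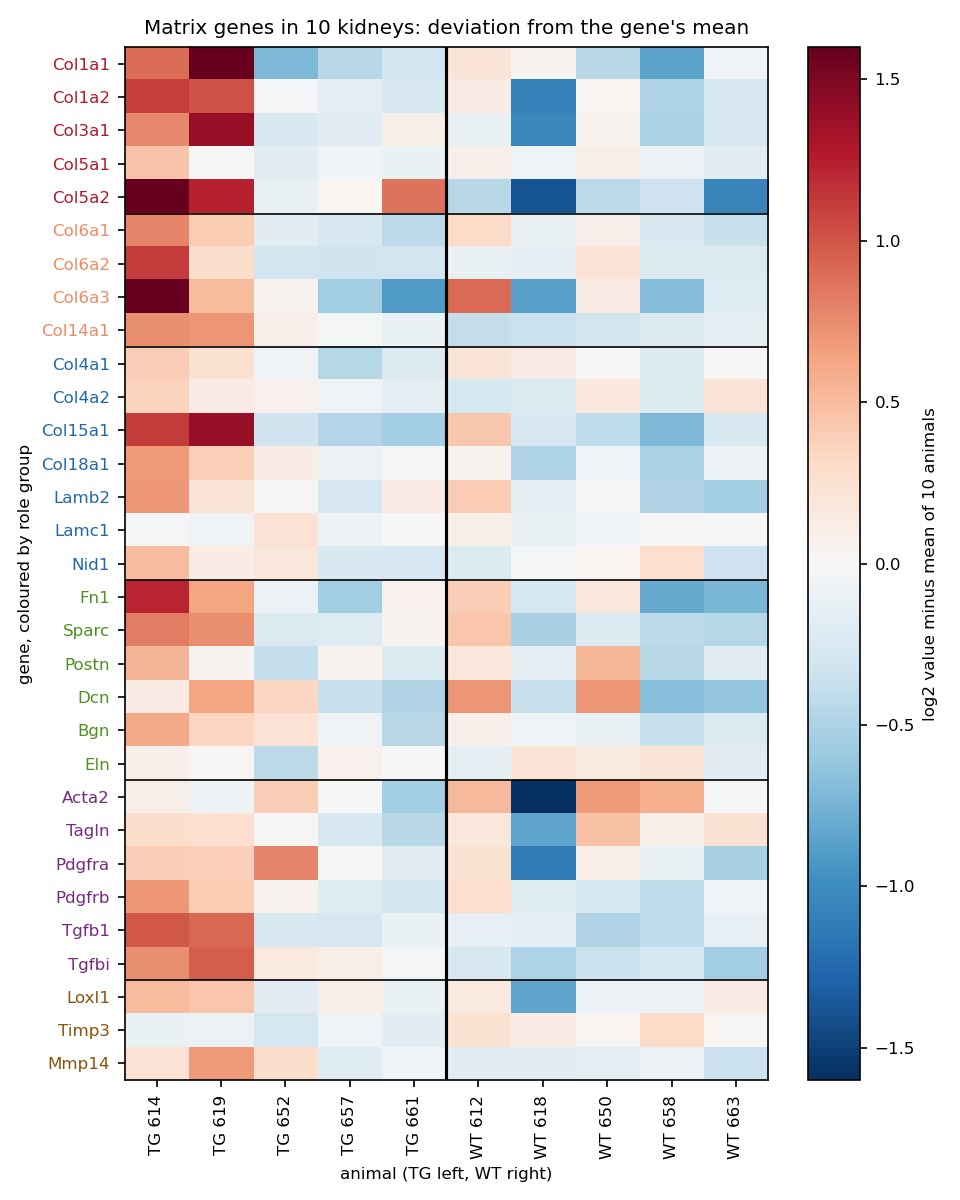
Colour gives each gene's log2 value minus its mean over 10 mice (rows, in 6 role groups; columns, TG mice left and WT mice right). TG 614 and TG 619 are the highest pair in 17 of 31 genes, and WT 618 is lowest in 9.

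Over all mice, 0 of the 31 matrix genes passed the test between TG and WT (limma, Benjamini-Hochberg adjusted p under 0.05), where 1.22% of all tested probe sets did, 83 of 6814. Nevertheless 26 of 31 genes had a positive difference, against 46.2% of all probe sets, and the median log2 difference was 0.30 in the matrix genes and -0.017 over all probe sets. At an unadjusted p under 0.05, 6 of 31 genes were higher in TG (Col5a2, Tgfbi, Col14a1, Col18a1, Mmp14 and Col3a1), against 6.72% of all probe sets. Timp3 was the 1 lower gene, against 6.02%. In 3 genes (Col5a2, Tgfbi and Col14a1) every TG value lay above every WT value, as in 2.17% of probe sets, and in Timp3 every TG value lay below, as in 1.91%. The median difference was 0.16 without TG 614 and 0.20 without TG 619, and in those fits, too, 0 matrix genes passed.

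**Figure D2:**
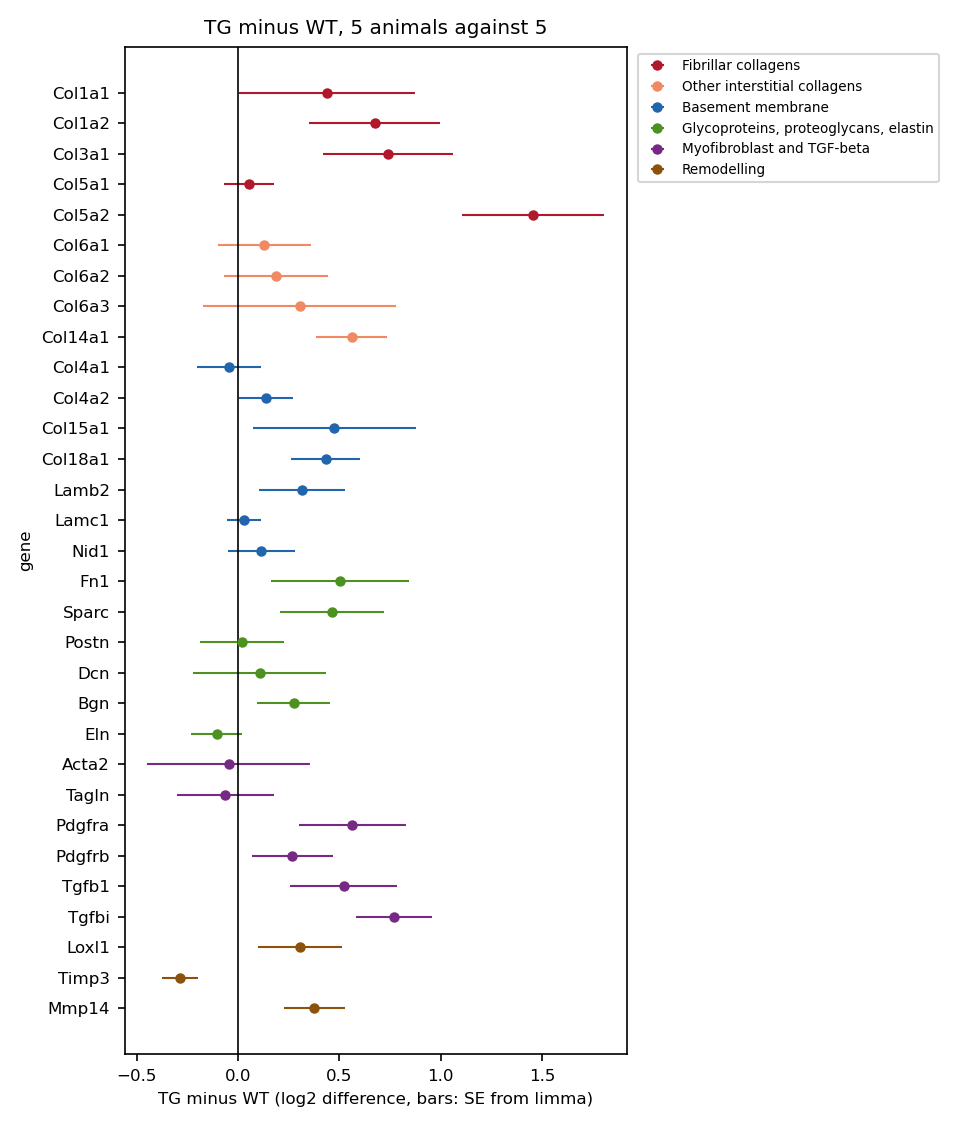
Points give the log2 difference TG minus WT for 31 genes in 6 role groups, and bars the limma standard error (5 TG and 5 WT mice). Col5a2 lies farthest to the right at 1.46, Timp3 farthest to the left at -0.29, and Acta2, Tagln, Col4a1, Lamc1 and Postn lie near 0.

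Among the fibrillar collagens, the difference was positive in all 5 tested genes, with a median of 0.67, and 0 passed. Col5a2 encodes a chain of type V collagen, which sits inside type I fibrils and sets their width. Its probe set, 92567_at, read 9.64, 9.24, 7.89, 8.03 and 8.87 in TG 614, 619, 652, 657 and 661, against 7.56, 6.62, 7.59, 7.67 and 6.96 in WT 612, 618, 650, 658 and 663. All 5 TG values were above all WT values, and TG 652 and TG 657 were closest to them. The TG mean was 2.74-fold the WT mean, a log2 difference of 1.46 ± 0.35 (SE) with adjusted p = 0.0851. An exact two-sided permutation test over all assignments of mice to groups of 5 gave p = 0.00794 for Col5a2, the smallest that this design allows. Any probe set whose groups do not overlap gets this value, those of Col14a1 and Timp3 included. It therefore adds nothing to the lack of overlap, and it is not adjusted for the number of probe sets. A model that also held the sex of the mice called Col5a2 higher (adjusted p = 0.0473, where 2.51% of all probe sets were called higher), as did a model with sex and number range (0.0297, where 4.59% were). The call with sex was lost in 9 of 10 fits with 1 mouse left out, with adjusted p up to 0.118, and held in the fit without TG 652.

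Col3a1 encodes type III collagen, the fibrillar collagen of soft interstitium. Its values were 8.74, 9.37, 7.73, 7.80 and 8.07 in TG 614, 619, 652, 657 and 661, against 7.86, 6.95, 8.03, 7.47 and 7.72 in WT 612, 618, 650, 658 and 663. TG 614, TG 619 and TG 661 were above every WT mouse and the other 2 TG mice lay among them. The log2 difference was 0.74 ± 0.32 (SE, adjusted p = 0.376).

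The 2 chains of type I collagen, described here after their values were seen, had the same pair of high mice. Col1a1, which encodes the alpha 1 chain, read 8.76, 9.55, 7.14, 7.42 and 7.56 in TG 614, 619, 652, 657 and 661, against 8.07, 7.90, 7.42, 7.00 and 7.82 in WT 612, 618, 650, 658 and 663. TG 614 and TG 619 were the highest of all mice, while TG 652, 657 and 661 lay within the WT values. The difference of Col1a1 was 0.44 ± 0.43 (SE, adjusted p = 0.722). Its partner chain gene Col1a2 differed by 0.67 ± 0.32 (adjusted p = 0.421), with TG 614 at 8.88 and TG 619 at 8.79 as the highest mice and WT 618 at 6.69 as the lowest. A second probe set of Col1a2, 161156_r_at, differed by -0.13, so the 2 probe sets of this gene had opposite signs. Col5a1, the other type V chain gene measured, lay close to the floor at 4.32 to 4.95 and differed by 0.055 ± 0.12 (adjusted p = 0.889).

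Of the other interstitial collagens, all 4 tested genes had a positive difference and 0 passed. Col14a1 encodes a collagen that binds to the surface of type I fibrils. It read 6.68, 6.65, 6.02, 5.91 and 5.84 in TG 614, 619, 652, 657 and 661, against 5.56, 5.60, 5.65, 5.71 and 5.78 in WT 612, 618, 650, 658 and 663. The groups did not overlap, although TG 661 and WT 663 lay next to each other. The difference of Col14a1 was 0.56 ± 0.17 (SE, adjusted p = 0.202), a ratio of 1.47, and the WT mice varied little around their mean (5.66 ± 0.09, SD, n = 5).

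Type VI collagen forms beaded filaments near cell surfaces, and its 3 chain genes had wide and overlapping groups. Col6a2 read 5.52, 4.69, 4.10, 4.09 and 4.11 in TG 614, 619, 652, 657 and 661, against 4.30, 4.27, 4.63, 4.19 and 4.19 in WT 612, 618, 650, 658 and 663. TG 614 was highest and TG 652, 657 and 661 were the 3 lowest of all mice. The difference was 0.19 ± 0.26 for Col6a2, 0.13 ± 0.23 for Col6a1 and 0.30 ± 0.48 for Col6a3, with adjusted p from 0.81 to 0.857. Without TG 614 the signs turned, with differences of -0.068 for Col6a2, -0.049 for Col6a1 and -0.072 for Col6a3.

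The basement membrane genes differed less, with a median of 0.14. The difference was positive in 6 of 7 tested genes and 0 passed. Col18a1 encodes the collagen whose cleaved end is endostatin. It read 10.01, 9.71, 9.45, 9.23 and 9.30 in TG 614, 619, 652, 657 and 661, against 9.39, 8.83, 9.27, 8.81 and 9.24 in WT 612, 618, 650, 658 and 663. TG 614, TG 619 and TG 652 were above every WT mouse. Col18a1 differed by 0.43 ± 0.17 (SE, adjusted p = 0.337), and its 3 other tested probe sets by 0.68, 0.44 and 0.28. That at 0.68, 101882_s_at, was called higher with sex in the model (limma, adjusted p = 0.0393) and with sex and number range (0.0302). That at 0.44, 162483_f_at, was called with sex and number range (0.0435). The probe set that stood for the gene and that at 0.28 were called in neither model. Of all probe sets, 2.51% were called higher with sex and 4.59% with sex and number range. Lamb2, the laminin chain of the glomerular basement membrane, read 7.42, 6.93, 6.74, 6.46 and 6.86 in TG 614, 619, 652, 657 and 661, against 7.13, 6.59, 6.71, 6.24 and 6.16 in WT 612, 618, 650, 658 and 663. Its groups overlapped, with a difference of 0.31 ± 0.21 (adjusted p = 0.585).

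Col4a1 and Col4a2, the 2 chains of the common type IV collagen and chosen here for their shared start region, had smaller differences. TG 614 and TG 619 were again the highest mice for Col4a1, at 11.37 and 11.22, with WT 612 next at 11.19. Col4a1 averaged 10.96 ± 0.34 in TG and 11.01 ± 0.16 in WT kidneys (SD, n = 5), a difference of -0.044 ± 0.16 (SE, adjusted p = 0.931). Col4a2 averaged 9.80 ± 0.19 in TG and 9.67 ± 0.24 in WT kidneys, a difference of 0.14 ± 0.13 (adjusted p = 0.717). The remaining genes of this group were Col15a1 (0.48 ± 0.40), the laminin gene Lamc1 (0.029 ± 0.086) and the nidogen gene Nid1 (0.11 ± 0.17). Col15a1, whose product bridges basement membrane and interstitium, again had TG 614 at 8.12 and TG 619 at 8.39 as the highest mice, against 6.46 to 6.67 in the other 3 TG mice and 6.28 to 7.43 in WT mice.

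Among the glycoprotein, proteoglycan and elastic fibre genes, 5 of 6 tested had a positive difference and 0 passed. Sparc encodes a collagen-binding protein made by remodelling tissue. It read 10.71, 10.63, 9.66, 9.69 and 9.93 in TG 614, 619, 652, 657 and 661, against 10.33, 9.37, 9.68, 9.48 and 9.44 in WT 612, 618, 650, 658 and 663. TG 614 and TG 619 were highest, WT 612 came next, and the difference was 0.46 ± 0.26 (SE, adjusted p = 0.495). Biglycan (Bgn), a small proteoglycan of the interstitium, read 10.20, 9.94, 9.82, 9.53 and 9.14 in TG 614, 619, 652, 657 and 661, against 9.67, 9.52, 9.48, 9.23 and 9.37 in WT 612, 618, 650, 658 and 663. TG 614, TG 619 and TG 652 were above every WT mouse while TG 661 was the lowest of all, and the difference was 0.27 ± 0.18 (adjusted p = 0.576). The second probe set of Bgn differed by 0.013.

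Fibronectin (Fn1), the adhesive glycoprotein laid down early in repair, differed by 0.50 ± 0.34 (adjusted p = 0.59). Decorin (Dcn), a proteoglycan that binds collagen fibrils, differed by 0.11 ± 0.33, with its highest value in WT 612 at 10.88. Periostin (Postn) and elastin (Eln) lay near the floor and differed by 0.021 ± 0.21 and -0.11 ± 0.13.

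Of the myofibroblast and TGF-beta genes, 4 of 6 had a positive difference and 0 passed. The 2 negative ones were the contractile genes, whose differences were smaller than their SE. Tgfbi encodes a secreted matrix protein induced by TGF-beta. It read 6.88, 7.10, 6.29, 6.22 and 6.10 in TG 614, 619, 652, 657 and 661, against 5.88, 5.64, 5.79, 5.86 and 5.58 in WT 612, 618, 650, 658 and 663. All 5 TG values were above all WT values, and the gap held in the TG mice other than 614 and 619. Tgfbi was 1.71-fold higher by means, a log2 difference of 0.77 ± 0.19 (SE, adjusted p = 0.0955). Its exact two-sided permutation p of 0.00794 follows from the lack of overlap between the groups. Tgfbi passed with number range in the model (adjusted p = 0.0397, where 1.12% of probe sets were called higher) and with sex and number range (0.0156), but not with sex alone (0.0526).

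Tgfb1, the gene of the growth factor itself, read 6.78, 6.71, 5.54, 5.52 and 5.68 in TG 614, 619, 652, 657 and 661, against 5.66, 5.63, 5.30, 5.39 and 5.66 in WT 612, 618, 650, 658 and 663. TG 614 and TG 619 stood clear of every other mouse, and the other 8 mice lay close together. Over all mice it differed by 0.52 ± 0.26 (SE, adjusted p = 0.447). The receptor gene Pdgfra, a marker of interstitial fibroblasts, read 8.38, 8.37, 8.77, 8.00 and 7.82 in TG 614, 619, 652, 657 and 661, against 8.23, 6.87, 8.09, 7.86 and 7.46 in WT 612, 618, 650, 658 and 663. Here TG 652 was highest and WT 618 lowest, with a difference of 0.56 ± 0.26 (adjusted p = 0.407). Pdgfrb, the related receptor gene of pericytes, differed by 0.27 ± 0.20 (adjusted p = 0.624).

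Acta2, which encodes smooth muscle actin, and Tagln, a contractile actin-binding protein, are described because they define myofibroblasts and vessel walls, a choice made after their values were seen. Acta2 read 7.91, 7.74, 8.20, 7.82 and 7.27 in TG 614, 619, 652, 657 and 661, against 8.33, 6.17, 8.49, 8.40 and 7.80 in WT 612, 618, 650, 658 and 663. No TG mouse exceeded the highest WT mouse, and TG 614 and TG 619 lay among the other mice, while WT 618 was far below the rest. The difference was -0.047 ± 0.40 for Acta2 (SE, adjusted p = 0.975) and -0.063 ± 0.24 for Tagln (adjusted p = 0.937). WT 618 was also the lowest mouse for Tagln, at 5.96 against 6.90 to 7.28 in the other WT mice. Without WT 618, Acta2 differed by -0.46 and Tagln by -0.28, and neither passed. Without WT 650 the signs turned, with differences of 0.12 for Acta2 and 0.048 for Tagln.

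**Figure D3:**
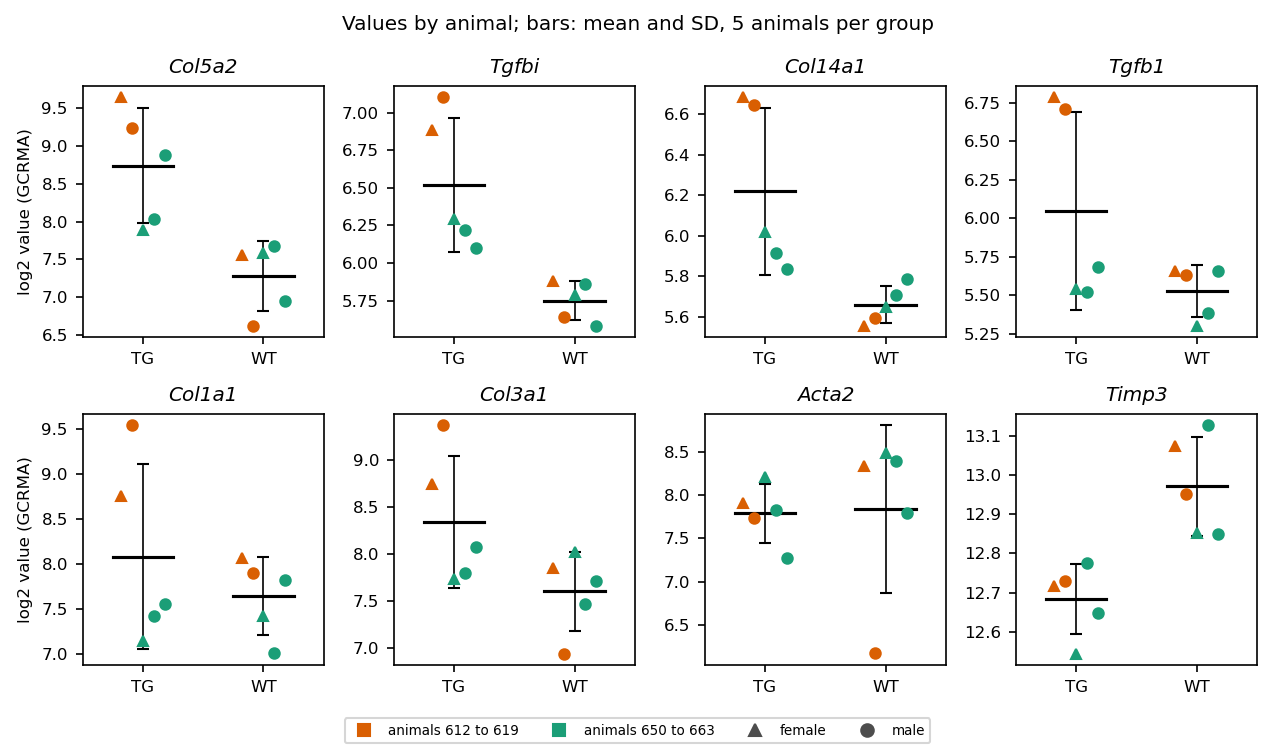
Each point is 1 mouse (log2 value; TG left, WT right; colour, number range; triangles, females; circles, males), with the group mean and SD of 5. In Col5a2, Tgfbi and Col14a1 the groups do not overlap and in Tgfb1, Col1a1 and Col3a1 the mice TG 614 and TG 619 are highest, while in Acta2 the groups overlap and in Timp3 all TG values are lower.

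Of the remodelling genes, 3 of 7 listed could be tested. Timp3, the matrix-bound metalloproteinase inhibitor, was the 1 matrix gene with a lower TG group at an unadjusted p under 0.05. It read 12.72, 12.73, 12.54, 12.78 and 12.65 in TG 614, 619, 652, 657 and 661, against 13.07, 12.95, 12.85, 13.13 and 12.85 in WT 612, 618, 650, 658 and 663. All TG values were below all WT values, and neither TG 614 nor TG 619 stood out. The difference was -0.29 ± 0.09 (SE, adjusted p = 0.193), 1.22-fold lower in TG, and it was -0.29 in each of the 2 number ranges.

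Mmp14 encodes the membrane-bound collagenase that also activates other metalloproteinases. It read 5.87, 6.32, 5.91, 5.44 and 5.57 in TG 614, 619, 652, 657 and 661, against 5.46, 5.47, 5.48, 5.54 and 5.29 in WT 612, 618, 650, 658 and 663. Except for TG 657 the TG mice were above every WT mouse, and the difference was 0.38 ± 0.15 (SE, adjusted p = 0.338). Loxl1, a lysyl oxidase of elastic fibres, differed by 0.31 ± 0.21 (adjusted p = 0.585), with WT 618 lowest at 3.29.

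The 7 genes with a probe set under the testing rule were Col12a1, lumican (Lum), Fbln2, Lox, Timp1, Timp2 and Mmp2. Their highest values on any array were 3.60, 4.34, 3.89, 3.84, 3.92, 3.23 and 2.50, so 6 of them were under the floor on every array, and Lum passed it in WT 650 alone. Timp1 and Mmp2, often used as readouts of renal fibrosis, were thus not measurable here by these probe sets. Fbn1 had no probe set of its own and Thbs1 shared its probe set with Pald1, so neither was analysed here.

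When TG and WT were compared within the mice numbered 612 to 619 (2 TG and 2 WT), 4 of 31 matrix genes rose, where 0.734% of all probe sets did, and 0 fell, where 0.249% did. Col5a2 rose by 2.35 ± 0.41 (log2, SE, adjusted p = 0.0416), a 5.10-fold difference, and Tgfbi by 1.23 ± 0.15 (adjusted p = 0.0133). Tgfb1 rose by 1.10 ± 0.14 (adjusted p = 0.0137) and Col14a1 by 1.09 ± 0.12 (adjusted p = 0.00706). They were a fibrillar collagen, a fibril-associated collagen, the growth factor and its target. Among the genes that did not pass, the largest differences were those of Col3a1 at 1.65 ± 0.32 (adjusted p = 0.0574), Col1a2 at 1.54 ± 0.34 (0.0747), Col15a1 at 1.17 ± 0.24 (0.0632) and Col1a1 at 1.17 ± 0.31 (0.124), and those of Col3a1 and Col1a2 exceeded 3 of the 4 called genes. The second probe set of Col1a2, 161156_r_at, differed by -0.23 ± 0.15 in these mice. In all, 29 of 31 genes had a positive difference, against 51.7% of probe sets, and the median was 0.63. The 3' minus 5' log2 difference of the actin controls was 3.35 in WT 612 and 2.90 in WT 618, the highest of all mice. It was 2.17 in TG 614 and 2.58 in TG 619. This difference was not put in the fit within these mice, and its part in the calls was not tested. The spread in this fit was estimated over all 10 mice. When the 4 mice were fitted on their own, 0 of 31 matrix genes passed (limma; 0.0294% of all probe sets did). The adjusted p was then 0.301 for Col5a2 and Tgfbi and 0.248 for Tgfb1 and Col14a1. At an unadjusted p under 0.05 this fit had 12 of 31 matrix genes, against 10.1% of all probe sets.

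Leaving out TG 614 or TG 619 ended all 4 calls, with 0 matrix genes past the threshold in each case, and leaving out WT 618 left 1, Col14a1, while the fit without WT 612 held 9. Col5a2 was lost as well without TG 657, WT 650, WT 658 or WT 663. Adjusted p then lay between 0.051 and 0.254 for the calls lost. Where 1 of these 4 mice was left out, the lone mouse of its group was assumed to vary like the other groups. With sex in the model, 11 of 31 genes rose in these mice, where 4.77% of all probe sets did: Col1a1, Col1a2, Col3a1, Col5a2, Col6a1, Col6a2, Col14a1, Col15a1, Col18a1, Tgfb1 and Tgfbi. All of them are collagen genes except Tgfb1 and Tgfbi. The second probe set of Col1a2 was not called in this model (adjusted p = 0.429).

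Within the mice numbered 650 to 663 (3 TG and 3 WT), 0 of 31 matrix genes passed, where 0.161% of all probe sets did. At an unadjusted p under 0.05 there were 3, Col5a2 (0.86 ± 0.34), Tgfbi (0.46 ± 0.12) and Timp3 (-0.29 ± 0.12), against 6.82% of all probe sets. The difference was positive in 17 of 31 genes, against 42.6% of probe sets, and the median was 0.037. The type I and III collagens differed by -0.045 (Col1a1), 0.10 (Col1a2) and 0.13 (Col3a1), and Tgfb1 by 0.13.

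The gap between the 2 number ranges was tested as an interaction. After adjustment, 0 of 31 matrix genes and 0 of 6814 probe sets (0.0%) passed (limma). At an unadjusted p under 0.05, 13 of 31 matrix genes were found, all with the larger difference in mice 612 to 619, against 2.74% of all probe sets. The smallest adjusted p was 0.593, for Col14a1, whose interaction was 0.88 ± 0.15. The difference TG minus WT was larger in mice 612 to 619 for 29 of 31 genes, against 59.2% of all probe sets, with Lamc1 and Timp3 as the exceptions. A difference between the ranges is therefore not shown gene by gene.

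**Figure D4:**
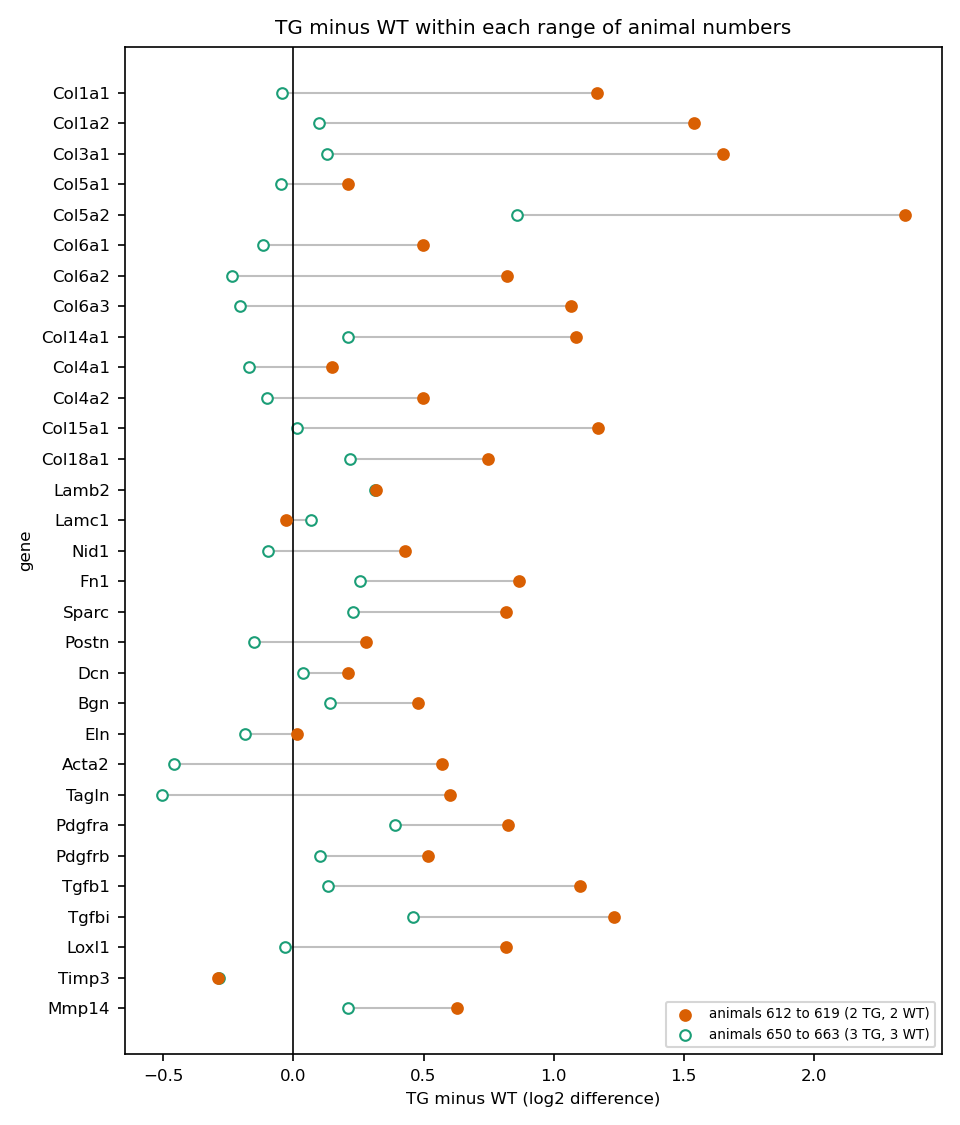
For each of 31 genes, the log2 difference TG minus WT in mice 612 to 619 (filled, 2 TG and 2 WT) and in mice 650 to 663 (open, 3 TG and 3 WT). The filled point lies to the right of the open one in 29 genes, while Timp3 is -0.29 in both.

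Levels themselves also went with the number range, which can hardly be told apart from the chip lot. With genotype in the model, 2 of 31 matrix genes were higher in mice 612 to 619 than in mice 650 to 663, where 1.36% of all probe sets were, and 0 were lower, where 2.23% were. They were Col1a1 (1.18 ± 0.27, SE, adjusted p = 0.0467) and Col15a1 (1.12 ± 0.24, adjusted p = 0.0381). Leaving out 1 mouse ended the call of Col1a1 in 9 of 10 fits, with adjusted p up to 0.116, and that of Col15a1 in 8 of 10, with adjusted p up to 0.117. The fits without TG 614, TG 619, TG 652, TG 657, TG 661, WT 612, WT 658 or WT 663 held 0 calls, whereas that without WT 618 held 8.

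Between females and males, with genotype in the model, 0 of 31 matrix genes passed, while 8.53% of all probe sets did. Nonetheless 28 of 31 were higher in females, against 47.3% of all probe sets, with a median of 0.31. At an unadjusted p under 0.05, 6 of 31 were higher in females, against 13.6% of all probe sets, led by Col6a3 (1.13 ± 0.35, adjusted p = 0.0702), Dcn (0.78 ± 0.25, 0.0727) and Pdgfra (0.64 ± 0.19, 0.0643). The difference of the TG effect between the sexes passed for 0 matrix genes (limma; 1, Dcn, at an unadjusted p under 0.05) and for 0.0147% of all probe sets.

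Markers of other cell types were set beside the matrix genes in the same mice. Of 20 leukocyte markers with a probe set, 11 were tested. All 11 had a positive difference, against 46.2% of all probe sets, and 2 rose, where 1.22% were called in either direction. These 2 were the protease gene Ctss by 1.24 (limma, adjusted p = 0.037) and the complement gene C1qa by 1.46 (adjusted p = 0.0493). The mean log2 deviation of the 11 markers was 0.73, 1.20, -0.18, 0.27 and 0.15 in TG 614, 619, 652, 657 and 661. It was -0.40, -0.74, -0.33, -0.54 and -0.16 in WT 612, 618, 650, 658 and 663. Within mice 612 to 619, where 4 of 31 matrix genes and 0.734% of all probe sets rose, 6 of 11 leukocyte markers rose. The median of the 11 markers there was 1.92. Within mice 650 to 663, where 0 matrix genes and 0.161% of all probe sets passed, 0 of 11 leukocyte markers passed (limma). Their median there was 0.28, and 4 of 11 had an unadjusted p under 0.05, against 6.82% of all probe sets. The 2 TG mice with the highest matrix values had the highest leukocyte values, and WT 618 was lowest in both. WT 618 was also the lowest mouse for smooth muscle and pericyte markers (-0.27), but not for endothelial or adipose markers. It was the highest mouse for proximal tubule markers (0.38). The summed linear level of the 11 genes ran from 1377 to 3252 in TG and from 950 to 1224 in WT kidneys. Of the defining markers, Cd68, Fcer1g, Itgam, Cd3g, Cd79b, Aif1 and Adgre1 were under the floor on every array. The part of leukocytes in the matrix values was not tested.

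Smooth muscle and pericyte markers had 0 of 6 tested genes past the threshold and a median of 0.0068, with summed levels of 628 to 859 in TG and 594 to 935 in WT kidneys; Cnn1, Des and Angpt1 were under the floor throughout. At an unadjusted p under 0.05 there were 0 of 6 too. Fibroblast markers had 0 of 5 past the threshold (0 unadjusted), a median of 0.30 and summed levels of 1290 to 2299 in TG and 894 to 2051 in WT kidneys, with Vim, Thy1, Fap, Meox1 and Clec3b under the floor. Their mean deviation was 0.041 in TG 614 and -0.055 in TG 619, highest in TG 657 at 0.47 and lowest in WT 618 at -0.76. Endothelial markers had 0 of 8 past the threshold (0 unadjusted) and were highest in WT 612. Of 4 tested adipose markers 1 fell, the carbonic anhydrase gene Car3 (-3.33, adjusted p = 0.0147), and the list was highest in WT 650. All 6 skeletal muscle markers and the cartilage and bone genes Acan, Col2a1, Ibsp and Dmp1 were under the floor on every array. What part these cell types have in the matrix values was not tested.

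**Figure D5:**
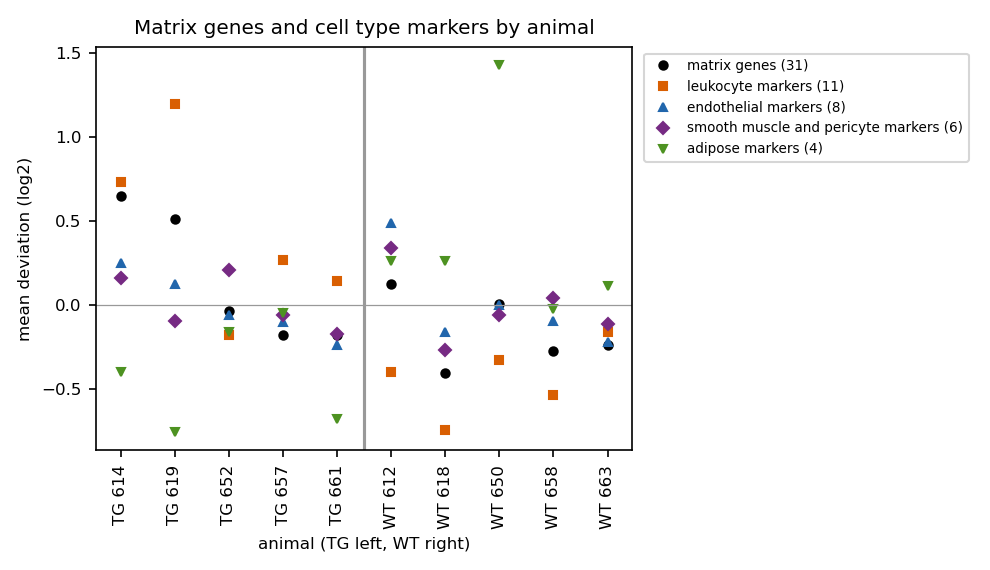
Mean log2 deviation from each gene's mean over 10 mice, for the 31 matrix genes and 4 sets of cell type markers, by mouse (TG left, WT right). Matrix genes and leukocyte markers are highest in TG 614 and TG 619 and lowest in WT 618, while adipose markers peak in WT 650 at 1.43.

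Other genes that build, sense or process matrix gave 0 calls over all mice. Of 23 other matrix genes tested, 0 passed (limma; 4 at an unadjusted p under 0.05), and the difference was positive in 16, with a median of 0.19. The examples with the smallest p were Fbln1, a basement membrane and elastic fibre glycoprotein (0.67 ± 0.21, adjusted p = 0.202), and Mgp, an inhibitor of calcification (1.00 ± 0.36, adjusted p = 0.276). Of 6 genes of collagen synthesis 0 passed (1 unadjusted) and 2 had a positive difference. Pcolce, which enhances cleavage of the collagen C-terminal propeptide, differed by 0.45 ± 0.13 (adjusted p = 0.174, and 0.0293 with sex and number range in the model), and the prolyl hydroxylase chain gene P4ha2 by -0.19 ± 0.11. The collagen chaperone gene Serpinh1, named after its values were seen, differed by 0.22 ± 0.20.

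Of 8 tested TGF-beta pathway genes, 0 passed (1 unadjusted) and 5 had a positive difference. The smallest p belonged to Ccn2, the connective tissue growth factor (0.71 ± 0.29, adjusted p = 0.35), and Bmp7, an antagonist of TGF-beta signalling in kidney (-0.37 ± 0.20, adjusted p = 0.474). The receptor genes Tgfbr1 and Tgfbr2 and the mediator Smad3 were under the floor on every array. Of 9 proteases and inhibitors 0 passed (1 unadjusted), with Ctsd at 0.31 ± 0.11 and Adamts1 at -0.24 ± 0.15, and Mmp3, Mmp7, Mmp9 and Mmp13 were among the 10 under the floor. Of 10 matrix receptors 0 passed (1 unadjusted). The syndecan gene Sdc2 differed by -0.66 ± 0.27 and was called lower once sex was in the model (adjusted p = 0.0471). The collagen receptor gene Ddr1 differed by 0.31 ± 0.16. Of 9 tubular injury genes tested, 4 rose over all mice, where 1.22% of all probe sets were called in either direction. Within mice 612 to 619, 3 of 9 rose, where 0.734% of all probe sets did, with a median of 1.19. Within mice 650 to 663, 1 of 9 rose, where 0.161% were called in either direction, with a median of 0.63. At an unadjusted p under 0.05 these mice had 5 of 9 (limma), against 6.82% of all probe sets. Of 8 proximal tubule markers 0 passed (limma; 2 at an unadjusted p under 0.05), and 3 were lower with sex in the model. Of 5 markers of other tubule segments 1 rose, the anion exchanger gene Slc4a1 (0.83, adjusted p = 0.0478), and 2 did with sex in the model. Of 5 mesangial and podocyte markers 0 passed (0 unadjusted).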

How the data were processed

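Kidney RNA of 5 TG and 5 WT mice (6 ug each, per the labels) was measured on 1 array per mouse. Expression is given as log2 values, 1 for each probe set and array, which were used as the authors deposited them. Per the submitters' processing notes they come from GCRMA, with no version stated. That the scale is log2 was read from their range. Per the file headers, the run records name chip lot, fluidics station and scan date, from which the day was taken.

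Among 12488 probe sets, 66 controls were left out, 10833 named 1 gene in the platform annotation, 396 several and 1193 none; 0 symbols were updated and 16 found no match. Probe sets over a log2 value of 4 on at least 5 of 10 arrays were tested, 6814 in number, and 5608 were not. The test of TG against WT used R 4.3.3 with limma 3.58.1 (lmFit, eBayes, two-sided, Benjamini-Hochberg over the tested probe sets, threshold 0.05). The same fit with 4 cells gave the contrasts within mice 612 to 619 and 650 to 663 and their interaction. Sex was read from Xist (female over 6) and Eif2s3y. In simulated data, known changes were given to probe sets drawn at random from the 6814, with independent noise at each probe set's SD. The TG against WT fit recovered 86% of changes of 1 and 97% of changes of 2 on the log2 scale. The interaction recovered 26% and 78%, with 12 false calls in the first fit and 1 in the second. These rates are averages over such probe sets and were not worked out for the matrix genes. The SE of TG minus WT in matrix genes ran from 0.086 (Lamc1) to 0.48 (Col6a3).

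The matrix genes, the other lists and the tests were chosen with earlier results of these data known. Values by mouse are given for members past the threshold, or for the 2 with the smallest p in each role group, and for genes said to have been added; other lists are given by members past the threshold or the 2 with the smallest p. For the leukocyte, adipose and pathway lists this rule was followed, and the tubule, podocyte, injury, endothelial, muscle and fibroblast lists are given mainly as counts. Alternatives covered the filter, variance model, normalization, scale, probe set, sex, number range, run records, the actin 3' to 5' difference and leaving out each mouse. The sex term, the alternatives for the number range term, all alternatives within each number range and for their interaction (except sex in the model for the interaction and its comparison between the sexes), and sex with a mouse left out were added after seeing the data. Figures used Python 3.11.15 and matplotlib 3.10.9.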

Additional observations from a re-analysis of the deposited data

Results flagged for a closer look

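Across the 31 tested matrix genes, 62 sets of 5 values (31 genes in TG and in WT) were checked for a mouse far from the others of its group, a check that chance alone meets in about 1 of 20 sets. It picked out 6. In TG kidneys, Col5a1 stood at 4.95 in TG 614 with the other TG mice at 4.33 to 4.49, Lamc1 at 4.34 in TG 652 with the others at 4.02 to 4.09, and Eln at 3.86 in TG 652 with the others at 4.27 to 4.36. In WT kidneys, Col6a2 stood at 4.63 in WT 650 with the other WT mice at 4.19 to 4.30. WT 618 was low for Tagln, at 5.96 with the other WT mice at 6.90 to 7.28, and for Loxl1, at 3.29 with the others at 4.04 to 4.29. All except Tagln lie near the floor of 4.

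Col6a2 and Tagln had every TG value above every WT value in mice 612 to 619 and every TG value below every WT value in mice 650 to 663. The gap between the ranges was 1.06 for Col6a2 and 1.11 for Tagln on the log2 scale. This opposite placing of the values was itself not tested, and the limma interaction gave adjusted p = 0.913 for Col6a2 and 1.00 for Tagln.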

How the results depend on the processing

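No paired analysis was possible because TG and WT mice share no replicate number and the labels do not say which were littermates. Of the 31 matrix genes, 0 passed over all mice; 1 passed with array weights (Col5a2), lot as block (Tgfbi, which drops TG 661), number range (Tgfbi) or sex (Col5a2) in the model, and 2 with sex and number range in the model or at adjusted p under 0.1. In mice 612 to 619 fitted alone the count was 0 and the median difference 0.63. With 1 mouse left out the count was 0 and the median ran from 0.16 to 0.38; with sex in the model as well, the count ran from 0 to 2 and the median from 0.12 to 0.38. Within mice 612 to 619 the 4 calls became 2 with the filter at log2 over 6, 11 with sex in the model and 0 to 9 with 1 mouse left out, and the median ran from 0.34 to 1.02. The count for the number range was 8 with sex in the model and 0 to 8 with 1 mouse left out; that for sex was 3 with number range and 0 to 4.

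Over all probe sets, the 83 calls became 285 with sex, 549 with sex and number range, 52 with station, 32 with day as block, 36 with median centring, 48 without a filter, 2 in mice 612 to 619 alone, 4 in mice 650 to 663 alone and 31 to 92 with 1 mouse left out, or 136 to 238 with sex in the model as well. Within mice 612 to 619 the 67 calls became 35 with median centring, 462 with sex and 8 to 139 with 1 mouse left out; within 650 to 663 the 11 became 59 and 3 to 10. The effect between the sexes gave 1 call. The sex term gave 978 with number range and 284 to 847 with 1 mouse left out, the range term 727 with sex and 10 to 328. The cause of these moves was not tested.

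The sign of the difference turned for several genes, Col1a1, Loxl1 and Col6a3 among them, whose differences over all mice were 0.44, 0.31 and 0.30. In mice 650 to 663 alone the difference was -0.045 for Col1a1, -0.10 for Col4a2, -0.049 for Col5a1, -0.12 for Col6a1, -0.24 for Col6a2, -0.20 for Col6a3, -0.034 for Loxl1, -0.096 for Nid1 and -0.15 for Postn. In mice 612 to 619 alone it was 0.57 for Acta2, 0.60 for Tagln, 0.15 for Col4a1, 0.014 for Eln and -0.029 for Lamc1. With lot as block it was 0.050 for Acta2, 0.047 for Tagln and 0.045 for Col4a1; with day as block, which drops TG 661 and WT 663, 0.071 for Acta2 and 0.095 for Tagln; with the actin covariate 0.067 for Col4a1. With 1 mouse left out, with or without sex in the model, the ranges were -0.46 to 0.18 (Acta2), -0.15 to 0.064 (Col4a1), -0.053 to 0.15 (Col5a1), -0.049 to 0.28 (Col6a1), -0.068 to 0.38 (Col6a2), -0.072 to 0.57 (Col6a3), -0.14 to 0.30 (Dcn), -0.027 to 0.059 (Lamc1), -0.11 to 0.21 (Postn) and -0.28 to 0.048 (Tagln). With 5 mice per group, and 2 or 3 within a number range, small differences could not be resolved; genes near the floor carry little signal over background.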

Other observations

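Outside the listed genes, the number range and sex of the mice went with a few matrix and matrix-related transcripts. With genotype in the model, 1 of 23 other matrix genes and 1 of 10 matrix receptors were higher in mice 612 to 619, as were 1.36% of all probe sets, and 0 were lower. They were the perlecan gene Hspg2, a basement membrane proteoglycan (0.41, adjusted p = 0.0439), and the syndecan gene Sdc4 (1.28, adjusted p = 0.0361). Between the sexes, where 8.53% of all probe sets were called, Ogn, the small proteoglycan osteoglycin, was higher in females by 1.25 (adjusted p = 0.000569). The laminin chain gene Lama1, the syndecan gene Sdc2 and the meprin protease gene Mep1b were lower in females, at -0.42 (adjusted p = 0.0468), -0.74 (adjusted p = 0.0218) and -0.70 (adjusted p = 0.00969).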
